A study of Mus musculus with 6 samples.

Results

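Transcripts of 9 complement genes, C3, C4b, C7, Cfb, Cfi, Cd55, Cd59a, Serping1 and Masp1, were followed in whole mouse kidney. They were taken by name from the deposited gene tables through their Ensembl identifiers, and all 9 were found among 57180 listed genes. The kidneys came from 6 wildtype male C57BL/6J mice that were 7 weeks old when obtained. The vehicle group (3 mice) received deionized water, a dose of 0 mg/kg, and the nanoplastic group (3 mice, assigned at random) received cationic polystyrene nanoparticles at 200 mg/kg, and both groups were dosed orally every day over 6 weeks. Each kidney gave 1 RNA-seq library, so the spread within a group is a spread between animals. The study's stated subject is inflammation and senescence of tubular epithelium linked to failing mitochondria.

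Complement is a cascade of blood proteins that marks cells for removal and opens their membranes. The classical and lectin pathways cleave C4 and C2, the alternative pathway uses factor B and factor D, and all of them meet at the cleavage of C3, after which C5 to C9 form the membrane attack complex. Soluble and membrane-bound regulators stop the cascade on the body's own cells. The liver makes most circulating complement, and kidney cells also make some components and carry the regulators on their surface.

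The libraries held 19408534 to 26292760 expected counts, and counts are given below as CPM, counts scaled to a common library size by TMM. Kidney markers were high in every library, with the thick limb gene Umod at 2836 to 4341 CPM and the proximal tubule gene Slc34a1 at 3316 to 3952 CPM. Umod was at 3410 to 4341 CPM in vehicle and 2836 to 3303 CPM in nanoplastic kidneys, without overlap. Its log2 fold change was -0.33 (SE 0.11, edgeR adjusted p = 0.588). A pair of libraries stood apart by fat cell transcripts. Adiponectin, a fat cell hormone encoded by Adipoq, had 444 counts in nanoplastic 1, 130 in vehicle 3 and no more than 2 elsewhere. The 10 fat cell markers summed to 103.2 CPM in vehicle 3, 271.3 CPM in nanoplastic 1 and 49.0 to 55.2 CPM in the others, and results that rest on those libraries are also given without them.

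C4b and Cd59a have close copies in the mouse genome, and reads that fit a gene and its copy equally are divided by the counting program. The stretches below show each pair where it is easiest to tell apart, and not how alike the pair is over its whole length. They are the 60 coding bases in which gene and copy differ most, from GENCODE vM21 transcripts, with the bases that differ in capitals.
C4b: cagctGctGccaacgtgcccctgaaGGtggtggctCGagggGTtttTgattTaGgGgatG
C4a: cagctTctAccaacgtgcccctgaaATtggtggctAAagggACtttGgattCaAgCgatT
Cd59a: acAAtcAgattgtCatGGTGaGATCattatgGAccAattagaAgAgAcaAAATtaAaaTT
Cd59b: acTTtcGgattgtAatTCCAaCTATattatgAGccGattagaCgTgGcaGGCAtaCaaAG
C4b and C4a differed at 13 of these 60 bases, and Cd59a and Cd59b at 25. Over the whole coding sequence C4b was 96.1% identical to the C4a transcript used, C4a-207. That annotation lists this transcript without a coding sequence, and other transcripts of C4a were not compared. Of all stretches of 100 bases in C4b, 16.4% were found unchanged in it. Cd59a was 85.3% identical to Cd59b, and 0 of its 273 stretches of 100 bases were unchanged in the copy. C4b had expected counts that were not whole numbers in 6 of 6 libraries and Cd59a in 5 of 6, so their values carry some uncertainty from the division of reads.

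Factor B was by far the most abundant of the 9 transcripts in kidney. Per unit of transcript length, in deposited TPM, Cfb measured 105.1 ± 6.18 in vehicle and 111.6 ± 7.10 in nanoplastic kidneys (SD, n = 3 each), 11.2 times the mean of the next gene. Serping1 followed at 9.40 ± 0.477 and 9.94 ± 3.18 TPM, and Cd59a at 7.54 ± 0.476 and 8.36 ± 1.53 TPM (SD, n = 3 each), and the ranges of Serping1 and Cd59a overlapped across the 6 libraries. Cd55 measured 5.41 ± 0.326 and 4.97 ± 0.469 TPM (SD, n = 3 each) and stood apart from its neighbours in the order. C3, C7, C4b and Cfi came next, at means of 2.64, 1.72, 1.57 and 1.525 TPM over all libraries. C3, C7 and C4b each overlapped the following gene, and Cfi did not overlap Masp1. Masp1 was the least abundant, at 0.08 to 0.40 TPM.

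**Figure D1:**
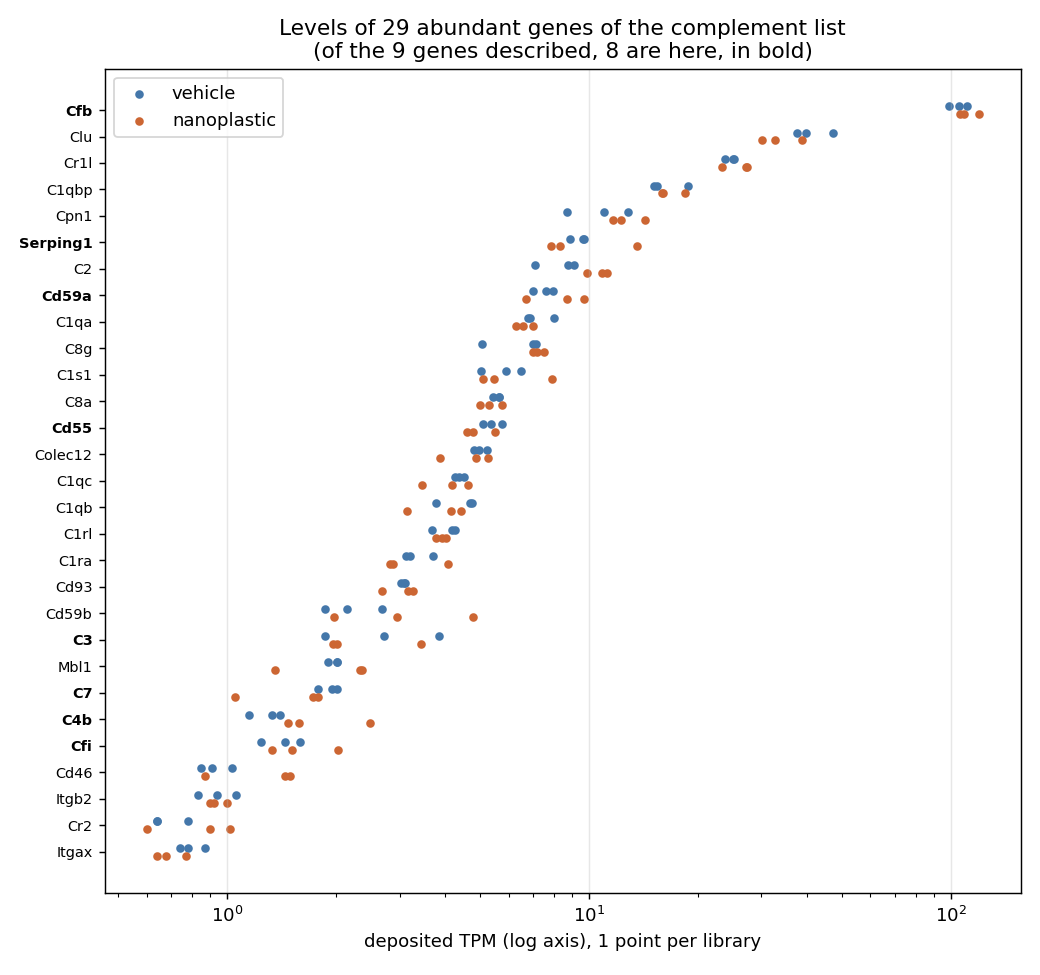
Deposited TPM on a log axis for 29 abundant measured genes of a 60-gene complement list, with 1 point per library (vehicle blue, nanoplastic orange) and the genes described here in bold. Cfb lies between 98.7 and 119.7 TPM, above every other gene drawn, and 8 of the 9 genes fall in this range of levels, Masp1 being lower.

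Whether these transcripts differed after nanoplastic was tested with edgeR's quasi-likelihood test over all 18092 genes that passed a filter on low counts, and all 9 genes passed that filter. After Benjamini-Hochberg adjustment 0 of the 9 passed 0.05, and 0.0% of all genes did. The lowest adjusted p among the 9 was 0.670, for Cd55. At an unadjusted p under 0.05 there was 1 of the 9, Cd55, which was lower, against 7.42% of all genes (3.8% higher and 3.61% lower). DESeq2 called 0 of the 9 after adjustment, beside 0.176% of all genes, with 1 of the 9 at an unadjusted p under 0.05 beside 2.92%. With limma-voom 0 of the 9 were called and 2 were under the unadjusted level, beside 7.19% of all genes, and edgeR without the count filter had 3 of the 9 there, beside 5.98%. By direction 4 estimates were positive and 5 negative, with a median log2 fold change of -0.01, beside 0.01 over all genes. In CPM the groups did not overlap in 2 of the 9, C7 and Cd55, both lower, and in 12.9% of all genes (6.32% lower and 6.54% higher).

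**Figure D2:**
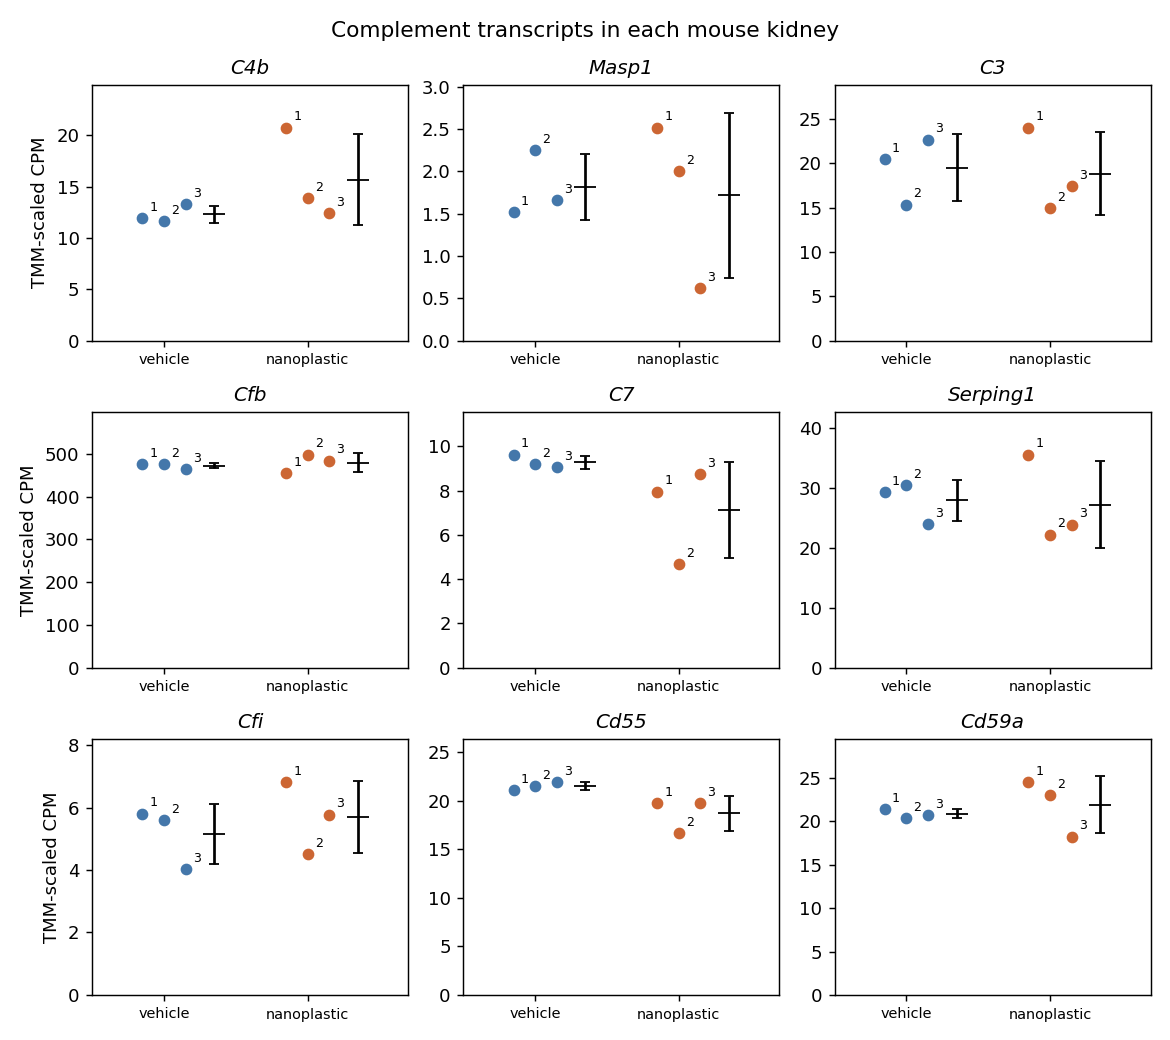
CPM of each gene in each mouse (y axis, starting at 0), with the mouse number beside each point and the group mean ± SD as a bar. The nanoplastic points of C7 and Cd55 all lie below the vehicle points, while in the other 7 genes the groups overlap.

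Among the genes that start the cascade, C4b, whose protein is cleaved by the classical and lectin pathway proteases, measured 11.9, 11.7 and 13.3 CPM in vehicle mice 1, 2 and 3 and 20.8, 13.9 and 12.4 CPM in nanoplastic mice 1, 2 and 3. Nanoplastic 1 was the highest, and nanoplastic 3 lay below vehicle 3. Its log2 fold change was 0.36 (SE 0.17, 95% interval -0.01 to 0.74, edgeR adjusted p = 0.683). Without nanoplastic 1 it was 0.10 (edgeR adjusted p = 0.903). Summed with its copy C4a, which had 15.7 to 61.4 counts per library, C4b had a log2 fold change of 0.28 (edgeR adjusted p = 0.714).

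Masp1, a serine protease of the lectin pathway, measured 1.52, 2.25 and 1.66 CPM in vehicle mice 1, 2 and 3 and 2.52, 2.00 and 0.624 CPM in nanoplastic mice 1, 2 and 3. These values rest on 12 to 62 counts, and nanoplastic 3 had the 12. Its log2 fold change was -0.01 (SE 0.37), with a 95% interval from -0.84 to 0.81, the widest of the 9. Without nanoplastic 1 the value was -0.38, without nanoplastic 3 it was 0.33, and without vehicle 3 and nanoplastic 1 it was -0.43, so its direction rests on single libraries.

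C3, on which all pathways converge, measured 20.5, 15.3 and 22.7 CPM in vehicle mice 1, 2 and 3 and 24.0, 15.0 and 17.4 CPM in nanoplastic mice 1, 2 and 3. Each group had a mouse near 15 CPM and one above 22 CPM. For C3 the log2 fold change was -0.05 (SE 0.18, 95% interval -0.44 to 0.34). Without nanoplastic 1 it was -0.27 (edgeR adjusted p = 0.769), and without that library and vehicle 3 it was -0.15.

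Cfb, which encodes factor B, the protease precursor of the alternative pathway, measured 475.9, 475.9 and 464.9 CPM in vehicle mice 1, 2 and 3 and 454.4, 497.9 and 483.8 CPM in nanoplastic mice 1, 2 and 3. It was the most even of the 9, with coefficients of variation of 1.35% in vehicle and 4.64% in nanoplastic mice. Between the groups its log2 fold change was 0.02 (SE 0.06), and the 95% interval from -0.12 to 0.16 was the narrowest of the 9. Its exons are shared in GENCODE vM21 with a longer gene on the same strand, Gm20547, which had 7.02 counts in nanoplastic 1 and 0 in the other libraries, against 9304 to 12212 counts for Cfb.

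Cfd, which encodes factor D, the enzyme that cleaves factor B and a well-known product of fat cells, followed the fat cell transcripts. It had 2, 8 and 301 counts in vehicle mice 1, 2 and 3 and 1511, 0 and 0 counts in nanoplastic mice 1, 2 and 3. Its counts were therefore high only in the 2 libraries that also held Adipoq, and it did not pass the count filter and was not tested.

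C7, a component of the membrane attack complex, was lower by CPM in all 3 nanoplastic kidneys without passing the test. It measured 9.63, 9.19 and 9.05 CPM in vehicle mice 1, 2 and 3 and 7.96, 4.68 and 8.74 CPM in nanoplastic mice 1, 2 and 3. In deposited TPM the lowest vehicle value and the highest nanoplastic value were both 1.79. Nanoplastic 2 was the lowest, at 112 counts, and by CPM the vehicle mice varied by 3.23% (coefficient of variation) against 30.3% in the nanoplastic mice. Its log2 fold change was -0.40 (SE 0.19, 95% interval -0.81 to 0.02, edgeR adjusted p = 0.684). Without nanoplastic 2 the log2 fold change was -0.16 (edgeR adjusted p = 0.886). The 8 fibroblast markers summed to 408.0 to 508.4 CPM in vehicle and 339.8 to 484.1 CPM in nanoplastic kidneys, with 8 of 8 estimates negative, and their part in the C7 value was not tested. In bulk tissue fewer cells of a type and less RNA per cell cannot be told apart.

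Serping1 encodes the C1 inhibitor, which blocks the proteases that start the classical and lectin pathways. It measured 29.3, 30.5 and 24.05 CPM in vehicle mice 1, 2 and 3 and 35.6, 22.3 and 23.9 CPM in nanoplastic mice 1, 2 and 3. Nanoplastic 1 was the highest and the other nanoplastic mice were the lowest of the 6. The log2 fold change was -0.03 (SE 0.16, 95% interval -0.39 to 0.33, edgeR adjusted p = 0.978). Without nanoplastic 1 it was -0.28 (edgeR adjusted p = 0.648), and without that library and vehicle 3 it was -0.37 (SE 0.09, adjusted p = 0.204).

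Cfi encodes factor I, the protease that inactivates C3b and C4b. It measured 5.81, 5.59 and 4.04 CPM in vehicle mice 1, 2 and 3 and 6.82, 4.51 and 5.77 CPM in nanoplastic mice 1, 2 and 3. The groups overlapped across most of their range. For Cfi the log2 fold change was 0.15 (SE 0.19, 95% interval -0.28 to 0.57). Without vehicle 3 and nanoplastic 1, which held the lowest and the highest value, it was -0.16 (SE 0.18).

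Cd55, or decay-accelerating factor, sits on the cell surface and takes apart the enzymes that cleave C3. It measured 21.1, 21.5 and 21.9 CPM in vehicle mice 1, 2 and 3 and 19.7, 16.6 and 19.7 CPM in nanoplastic mice 1, 2 and 3. By CPM all nanoplastic kidneys lay below all vehicle kidneys, and the vehicle mice varied by 1.96%. In deposited TPM the groups of Cd55 overlapped. They were at 5.38, 5.1 and 5.75 TPM in vehicle mice 1, 2 and 3 and at 5.5, 4.62 and 4.78 TPM in nanoplastic mice 1, 2 and 3. The log2 fold change was -0.20 (SE 0.09, 95% interval -0.40 to -0.005, unadjusted p = 0.0455 and adjusted p = 0.670 with edgeR). Without nanoplastic 2 it was -0.12 (edgeR adjusted p = 0.871). The antisense gene Gm16083 shares exon sequence with Cd55 and had 3 to 9.03 counts per library, against 379 to 541.0 for Cd55.

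Cd59a, a membrane protein that blocks the final assembly of the attack complex, measured 21.4, 20.4 and 20.7 CPM in vehicle mice 1, 2 and 3 and 24.6, 23.0 and 18.3 CPM in nanoplastic mice 1, 2 and 3. Nanoplastic 1 and 2 lay above the vehicle mice and nanoplastic 3 below them. For Cd59a the log2 fold change was 0.08 (SE 0.11, 95% interval -0.16 to 0.32), and -0.0063 without nanoplastic 1. Summed with the copy Cd59b, Cd59a was at 0.12 with all 6 libraries. Cd59b itself was at 1.64, 1.95 and 2.00 CPM in the vehicle mice and at 3.57, 2.67 and 1.72 CPM in the nanoplastic mice (log2 fold change 0.55, SE 0.27, edgeR adjusted p = 0.693). The copy of Cd55, Cd55b, had 2.02 counts in nanoplastic 1 and 0 elsewhere.

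**Figure D3:**
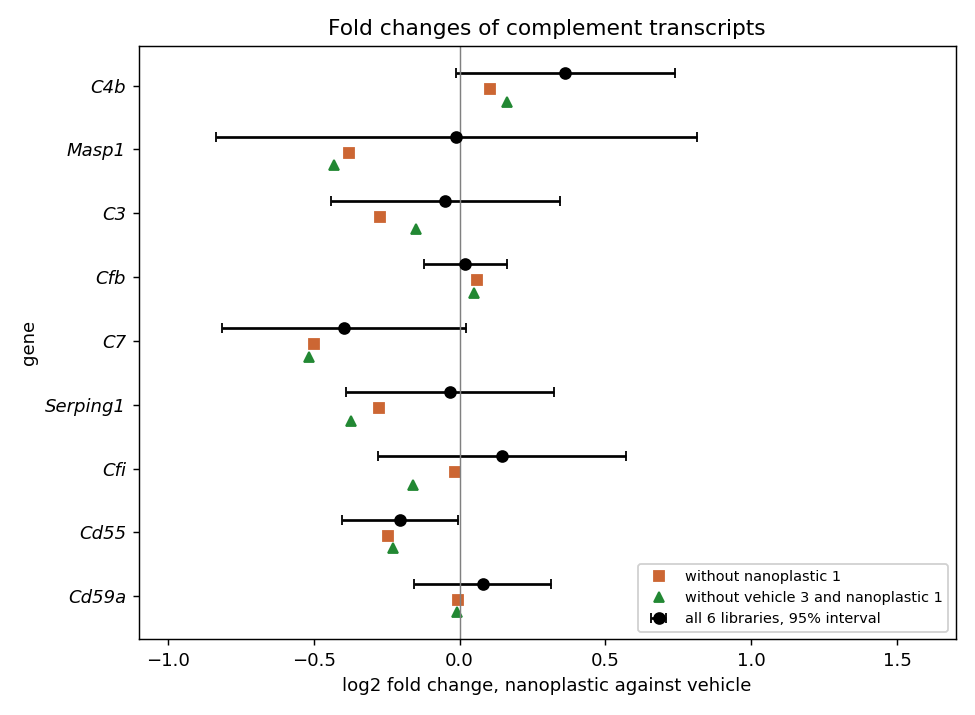
Log2 fold change of nanoplastic against vehicle (x axis) for each gene, with the estimate from all 6 libraries and its 95% interval in black, the estimate without nanoplastic 1 as squares, and without vehicle 3 and nanoplastic 1 as triangles. The values of Serping1 move from -0.03 to -0.28 and -0.37, and that of C4b from 0.36 to 0.10 and 0.16.

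The 9 genes varied more between the nanoplastic mice than between the vehicle mice. Their median coefficient of variation was 6.95% in vehicle and 24.9% in nanoplastic mice, beside 9.19% and 10.2% over all genes, and the difference was not tested. Nanoplastic 1 held the highest value for 6 of the 9, C4b, Masp1, C3, Serping1, Cfi and Cd59a, while it held the highest value for 21.8% of all genes. Of the 46 measured genes of a wider complement list, which include these 9, 13 were highest in nanoplastic 1 and 14 in vehicle 1. Nanoplastic 2 held the lowest value for 4 of the 9, C3, C7, Serping1 and Cd55, beside 14.3% of all genes. In vehicle 3, the other library with fat cell transcripts, C3, C4b and Cd55 were the highest of the vehicle mice, and Serping1, Cfi, C7 and Cfb were the lowest. Nanoplastic 1 also had the highest level of 6 urothelial markers, 18.4 CPM in sum against 1.78 to 5.46 CPM in the other libraries. The part of fat and urothelial transcripts in these values was not tested. The median log2 fold change of the 9 was -0.25 without nanoplastic 1, beside 0.00 over all genes in the same fit. This was the lowest median of the 9 in 16 other processing settings, which ranged up to 0.05. The wider list had a median of -0.08 without nanoplastic 1 and -0.07 with all 6 libraries.

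**Figure D4:**
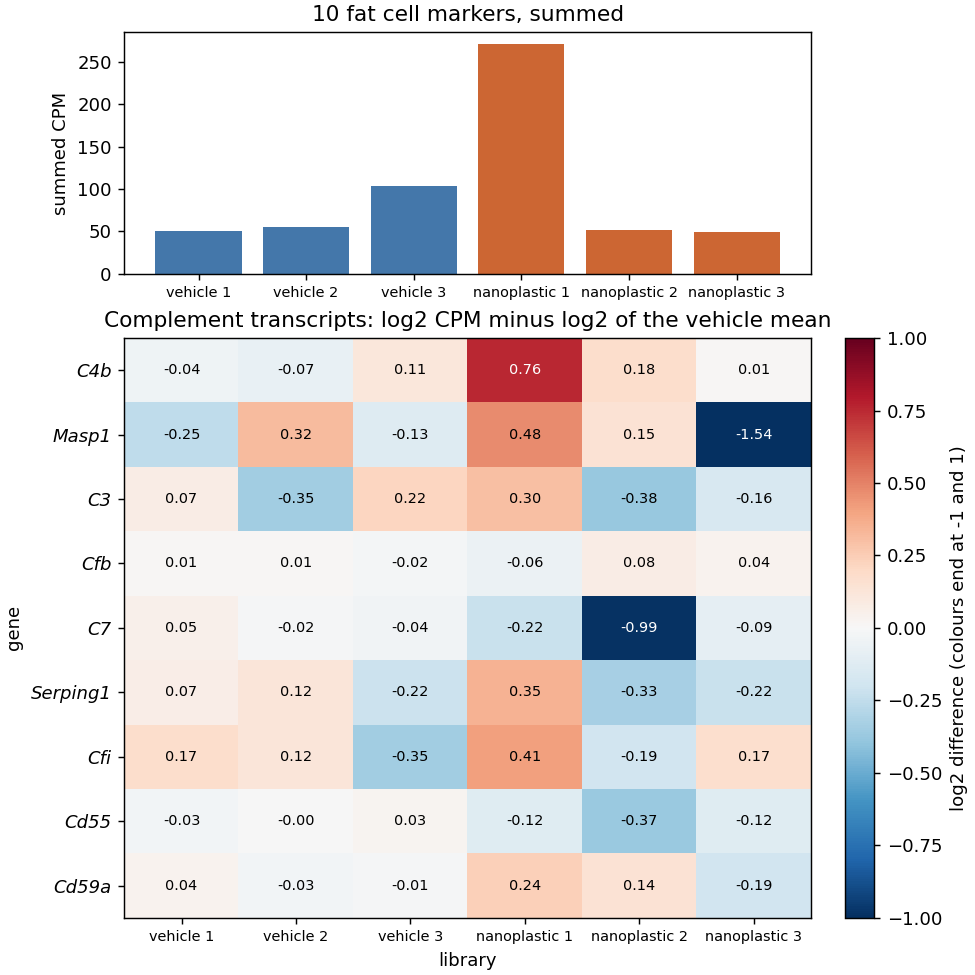
Top, the summed CPM of 10 fat cell markers in each library; bottom, log2 CPM of each gene minus the log2 of its vehicle mean, with the value in each cell and colours that end at -1 and 1. C4b reaches 0.76 and Serping1 0.35 in nanoplastic 1, C7 is at -0.99 in nanoplastic 2, and Cfb stays between -0.06 and 0.08.

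A list of 60 complement genes places the 9 in their pathway. Of these, 46 passed the count filter and 0 were called after adjustment with edgeR, with 6 of the 46 at an unadjusted p under 0.05, 2 higher and 4 lower, beside 7.42% of all genes (3.8% higher and 3.61% lower). DESeq2, which tested 58 of the list, called 0 and had 4 at that unadjusted level, beside 2.92% of all genes it tested. With limma-voom 0 of the 46 were called and 7 were under it, beside 7.19% of all genes. The list had 19 positive and 27 negative estimates and a median log2 fold change of -0.07. By role, the classical pathway had 2 positive and 7 negative estimates of 9 measured, the lectin pathway 1 and 4 of 5, C3 and the alternative pathway 2 and 1 of 3, and the terminal pathway 3 and 3 of 6. Soluble regulators had 5 and 4 of 9, membrane regulators 3 and 3 of 6, and receptors 3 and 5 of 8. Of the 14 genes below the filter, 2 were at 0 counts in every library, and apart from Cfd none exceeded 15.4 counts in a library.

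**Figure D5:**
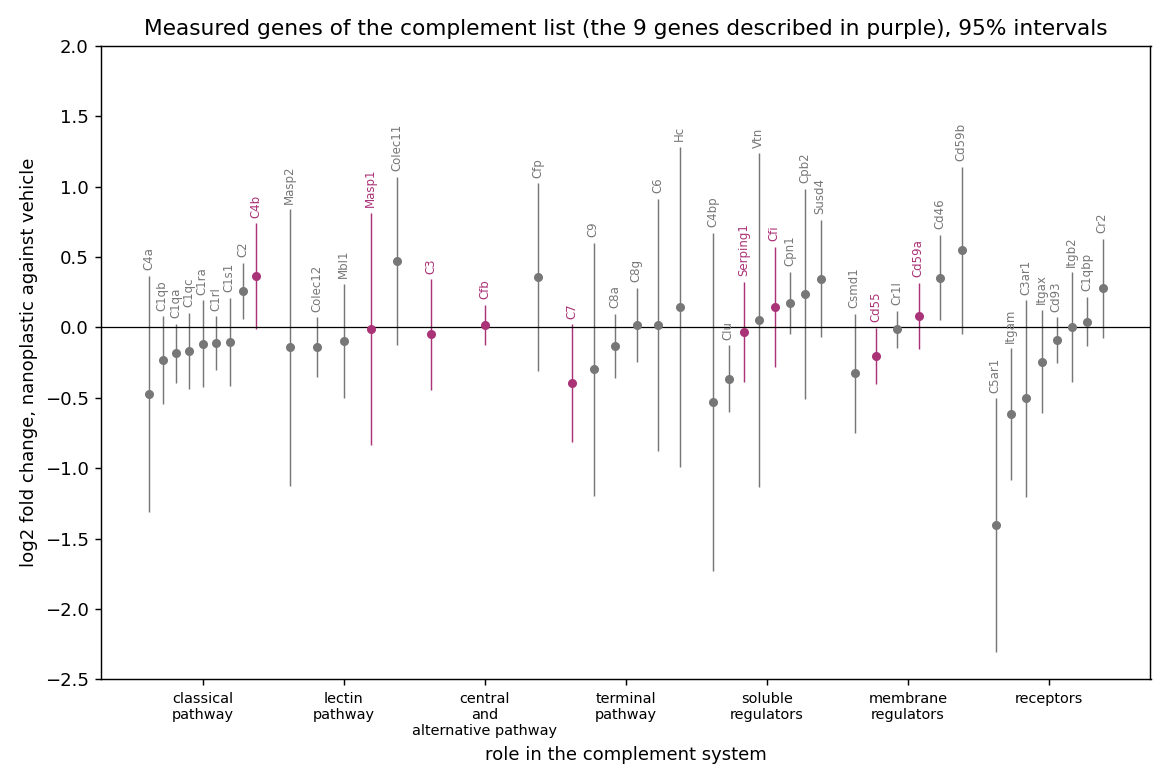
Log2 fold change of nanoplastic against vehicle with its 95% interval (y axis) for 45 measured genes of the complement list, grouped by role, with the 9 genes described here in purple. Most intervals include 0, and the interval of C5ar1 is the lowest, from -2.31 to -0.50.

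The partner genes at an unadjusted edgeR p under 0.05 lay in both directions. C2, the classical pathway relative of factor B, was at 41.3, 32.5 and 37.7 CPM in the vehicle mice and at 42.9, 44.1 and 46.8 CPM in the nanoplastic mice, without overlap. Its difference was 0.26 on the log2 scale (SE 0.09), with an adjusted p of 0.594 from edgeR. Cd46, a membrane cofactor for factor I, was at 10.8, 8.71 and 9.52 CPM in the vehicle mice and at 13.5, 13.5 and 9.98 CPM in the nanoplastic mice, a log2 difference of 0.35 (SE 0.14; edgeR adjusted p = 0.611). Clu, or clusterin, which binds the late components, was at 118.1, 130.5 and 133.2 CPM in the vehicle mice and at 91.9, 86.9 and 118.5 CPM in the nanoplastic mice, where nanoplastic 3 reached the lowest vehicle value. The log2 difference was -0.36 (SE 0.11), and the adjusted p was 0.501 with edgeR and 0.0885 with DESeq2.

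The remaining ones were receptors of myeloid cells. C5ar1, the receptor for the C5a fragment, had 15, 12 and 16 counts in vehicle mice 1, 2 and 3 and 5, 4 and 6 counts in nanoplastic mice 1, 2 and 3, a log2 difference of -1.41 (SE 0.41; edgeR adjusted p = 0.501) that was -0.34 on the log2(TPM + 1) scale, which understates differences of low genes. Itgam, a subunit of complement receptor 3, was at 2.38, 2.08 and 2.12 CPM in the vehicle mice and at 1.38, 1.38 and 1.56 CPM in the nanoplastic mice, a log2 difference of -0.62 (SE 0.21; edgeR adjusted p = 0.591) that was -0.07 on the log2(TPM + 1) scale. By CPM all nanoplastic kidneys lay below all vehicle kidneys in both genes. In deposited TPM the groups of Itgam overlapped. It was at 0.34, 0.51 and 0.28 TPM in vehicle mice 1, 2 and 3 and at 0.18, 0.59 and 0.20 TPM in nanoplastic mice 1, 2 and 3. The 10 macrophage markers, which include the C1q chains, summed to 122.1 to 132.0 CPM in vehicle and 110.8 to 116.6 CPM in nanoplastic kidneys, with 10 of 10 estimates negative. Ptprc, the leukocyte antigen CD45, was also lower in all nanoplastic kidneys, by a log2 value of -0.30 (SE 0.08). The part of leukocyte number in the receptor values was not tested.

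The other abundant complement transcripts described here had estimates between -0.23 and 0.17. Cr1l, the rodent membrane regulator also known as Crry, ranged from 64.8 to 67.8 CPM in vehicle and from 64.8 to 65.7 CPM in nanoplastic kidneys, a log2 difference of -0.01 (SE 0.06). The log2 difference of C1qbp was 0.04 (SE 0.08), that of Cpn1 0.17 (SE 0.10) and that of C1s1 -0.10 (SE 0.14). C8a and C8g, chains of the attack complex component C8, were at -0.13 (SE 0.10) and 0.02 (SE 0.12) on the same scale, and the lectin Colec12 at -0.14 (SE 0.10). For C1qa, a chain of C1q, the value was -0.19 (SE 0.10), and its nanoplastic libraries all lay below the vehicle libraries in CPM. The other C1q chains, C1qb and C1qc, were at -0.23 (SE 0.14) and -0.17 (SE 0.12), and in both the groups overlapped. C4a, the copy of C4b, was at -0.47 (SE 0.38).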

How the data were processed

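RNA of 6 mouse kidneys was sequenced. The submitters' processing notes list the build GRCm39 and the tools RSEM 1.3.3, STAR 2.7.9a, Trim Galore 0.6.6 and FastQC. The annotation release and whether counting used strand are not given in the sources used here. Each library has a gene table by the authors whose columns, per the file headers, are expected counts, TPM and FPKM. No normalization has been applied to the deposited expected counts. The deposited TPM served for levels between genes and for 1 alternative. In TPM, 2 genes took 55.5% to 59.4% of a library, so the other TPM values depend on them. The deposited FPKM were not used.

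Genes were named from GENCODE vM21, which is on another build, so no coordinates are given. Expected counts were rounded to whole numbers. After filterByExpr and TMM scaling, the groups were compared with glmQLFit (legacy = FALSE) and glmQLFTest of edgeR 4.0.16 under R 4.3.3, with no covariate, with Benjamini-Hochberg adjustment over 18092 genes and a threshold of 0.05. DESeq2 1.42.0 and limma 3.58.1 were alternatives, beside other scalings, no count filter, a replicate block and leaving out libraries. A standard error is the size of the log2 estimate over the square root of its F statistic, and the 95% intervals include the variation between mice. The edgeR step was tested on simulated data.

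The 9 genes and the lists were chosen with earlier results of these data known. All 9 genes are named. Of the other complement genes, the 12 with the highest mean TPM, those at an unadjusted p under 0.05, Cfd and the copies of C4b, Cd55 and Cd59a are named, except 1 gene that is not reported here and is left out of the figures. C1qb, Itgb2, Ptprc, Umod, Slc34a1, Gm20547 and Gm16083 were added after their values were seen.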

Additional observations from a re-analysis of the deposited data

How the results depend on the processing

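None of the 9 genes passed an adjusted p of 0.05 in any of 16 other settings (DESeq2 gave no adjusted p for Masp1), and the lowest adjusted p, 0.204 for Serping1, came from edgeR without vehicle 3 and nanoplastic 1 with 2 mice a group. That setting, the older form of the quasi-likelihood test and the sums with copies were added after seeing the data. At an unadjusted p under 0.05 there were 0 to 3 of the 9. The 60-gene list had 0 calls in 14 other settings. C4b, C7 and Cd55 kept their direction in 16 of 16 settings, with log2 fold changes of 0.10 to 0.50, -0.55 to -0.16 and -0.25 to -0.11. Scaled by library size alone, which moved the median of all genes to 0.05, Masp1 was at 0.0371 and Serping1 at 0.0186, and in log2(TPM + 1) Serping1 was at 0.0359. Without vehicle 3 and nanoplastic 1, Cfi was at -0.16 and Cd59a at -0.0094. Leaving out 1 library at a time gave -0.27 to 0.0947 for C3, -0.38 to 0.33 for Masp1, -0.28 to 0.10 for Serping1, -0.0155 to 0.30 for Cfi, -0.0063 to 0.19 for Cd59a and -0.01 to 0.0582 for Cfb, so these changed sign; the cause was not tested.

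No clear pairing of mice by replicate number was seen. Deviations of same-numbered libraries correlated at 0.04, -0.02 and 0.10 over all genes. Vehicle 1 and vehicle 3 correlated best with their own number, and vehicle 2 did not. With 3 mice a group these correlations cannot exclude a pairing. With the replicate number as a block 0 of the 9 and 0 of the list were called, as without it. Among the low values described, Masp1 rests on 12 to 62 counts a library and C5ar1 on 4 to 16.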
